A study of Mus musculus with 6 samples.

Results

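Serpins are a family of proteins named for the serine protease inhibitors among them, and the 28 genes described here are serpins that mammary epithelial cells (MECs) of IL-21isoTg and wild-type mice had measurable counts of. They were chosen among the rows of the deposited count table that are protein-coding, have a symbol beginning with Serpin and hold at least 30 counts summed over the 6 mice. The table lists 55487 genes, of which 69 have such a symbol and 62 of those are protein-coding. Of the 62, 20 held 1 to 29 counts and 13 held none. Just inside the limit lay Serpina3b with 33 counts and Serpina1d and Serpinb3b with 34 each. Just outside it lay Serpina12 with 27, Serpinf2 with 24 and Serpinb12 with 21.

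The RNA was sequenced from 3 wild-type and 3 IL-21isoTg mice, with 1 library per mouse, and reads were counted on genes. All were virgin BALB/c females of 10 weeks, and the estrous stage was randomized. IL-21isoTg mice carry a transgene for a membrane-bound isoform of the cytokine IL-21 that is expressed in T cells, so the epithelial cells themselves are not the cells the transgene was made for. MECs were what remained of the digested gland after magnetic removal of cells bearing CD45 (leukocytes), CD31 (endothelium) or CD140a (fibroblasts). The comparison asks which transcripts of the epithelium differ at an age before tumors appear in these mice.

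A serpin presents a flexible reactive loop to its target protease as bait. When the protease cuts the loop, the loop folds into the body of the serpin and drags the protease along, so that both proteins are trapped and spent. A few members, among them Serpinb5 and Serpinh1, keep the fold without inhibiting a protease. In the mammary gland serpins are known for their part in the plasminogen system, which remodels the ducts and alveoli, and for guarding epithelium and milk against proteases of leukocytes and lysosomes.

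The loop is short enough to be read in the coding sequence. A window of 30 codons that ends where the conserved serpin signature begins was found in 24 of the 28 genes; Serpina10, Serpina3b, Serpina3i and Serpinb11 had no match to the signature. The window holds the hinge of the loop, which must slide into the body of the protein, and in inhibitory serpins the hinge is known for small residues such as alanine. Runs of 3 or more alanine codons in a row occurred in 16 of the 24 windows, runs of 2 in 6, a longest run of 1 in 1 and no alanine codon at all in 1. The windows below show how runs differ among some of the serpins described, from the GENCODE M21 transcripts of GRCm38, with alanine codons in capitals.
Serpina3n: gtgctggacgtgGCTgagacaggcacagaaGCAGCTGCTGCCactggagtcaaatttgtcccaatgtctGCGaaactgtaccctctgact
Serping1: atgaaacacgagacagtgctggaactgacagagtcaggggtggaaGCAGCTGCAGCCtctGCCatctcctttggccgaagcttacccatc
Serpinb1a: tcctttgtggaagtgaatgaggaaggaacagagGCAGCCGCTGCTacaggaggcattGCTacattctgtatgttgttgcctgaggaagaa
Serpinb5: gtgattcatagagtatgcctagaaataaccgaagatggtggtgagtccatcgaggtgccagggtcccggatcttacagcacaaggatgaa
Serpinh1: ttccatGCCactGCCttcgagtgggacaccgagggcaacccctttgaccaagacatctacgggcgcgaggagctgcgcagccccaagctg
The longest run of alanine codons was 4 in Serpina3n, Serping1 and Serpinb1a, 1 in Serpinh1 and 0 in Serpinb5. Serpinb5 and Serpinh1 do not act as inhibitors. These windows were picked. The longest run was 2 in the inhibitors Serpinb2 and Serpine2, and also 2 in Serpinf1, which does not act as a protease inhibitor either. Run length was not tested as a mark of inhibitors.

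The total count on genes lay between 15902886 and 25719244 per mouse, and 3 counts, taken as the floor, corresponded to 0.112 to 0.28 CPM (read counts scaled by TMM-normalized library size, the unit of all levels here), which covers counting error only. Luminal and myoepithelial markers were detected in all 6 mice, at summed levels of 5830 to 10100 CPM for 10 luminal genes. The 10 myoepithelial genes summed to 2160, 2480 and 2110 CPM in wild-type mice and 3930, 3540 and 2330 CPM in IL-21isoTg mice, and 9 of them had higher levels, 3 with an unadjusted p under 0.05, with a median log2 fold change of 0.555. The libraries also held RNA typical of other tissues. A list of 15 salivary gland genes summed to 227000, 53500 and 140000 CPM in the wild-type mice and 238000, 41800 and 600000 CPM in the IL-21isoTg mice, so that IL-21isoTg mouse 3 stood apart. All 8 milk protein genes listed had higher levels in every IL-21isoTg mouse than in any wild-type mouse. Markers of the cells that the depletion was meant to remove were still present, and are given beside the serpins below. In such bulk libraries fewer cells of a type and less RNA per cell cannot be told apart.

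Together the 28 serpins had a summed level of 550, 587 and 492 CPM in wild-type mice 1, 2 and 3 and of 751, 695 and 597 CPM in IL-21isoTg mice 1, 2 and 3. IL-21isoTg mice 1 and 2 lay well above the wild-type mice, and IL-21isoTg mouse 3 lay just above wild-type mouse 2. The place of IL-21isoTg mouse 3 rested on the scaling and on Serpinb2. As a share of raw counts the serpins made up 0.0547%, 0.0718% and 0.0544% in wild-type mice against 0.0702%, 0.0811% and 0.0402% in IL-21isoTg mice, and IL-21isoTg mouse 3 was the lowest of the 6. Without Serpinb2, a gene singled out after its values were seen, the sum in IL-21isoTg mouse 3 was 518 CPM, below the 535 and 576 CPM of wild-type mice 1 and 2. The 6 most abundant of the 28, Serpinh1, Serping1, Serpinf1, Serpinb6a, Serpinb5 and Serpinb2, made up 84% of it. Per kilobase of exon the first 5 of the 28 were, in order, Serpinh1 with 82.3 CPM, Serping1 with 46.8, Serpinf1 with 29.3, Serpinb5 with 17.3 and Serpinb6a with 11.7, followed closely by Serpina3n with 11.5 and Serpinb2 with 10.2. At the other end 7 serpins did not pass the filter on low counts and were not tested, namely Serpina1a, Serpina1d, Serpina3b, Serpinb3b, Serpinb6d, Serpinb7 and Serpine3.

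**Figure D1:**
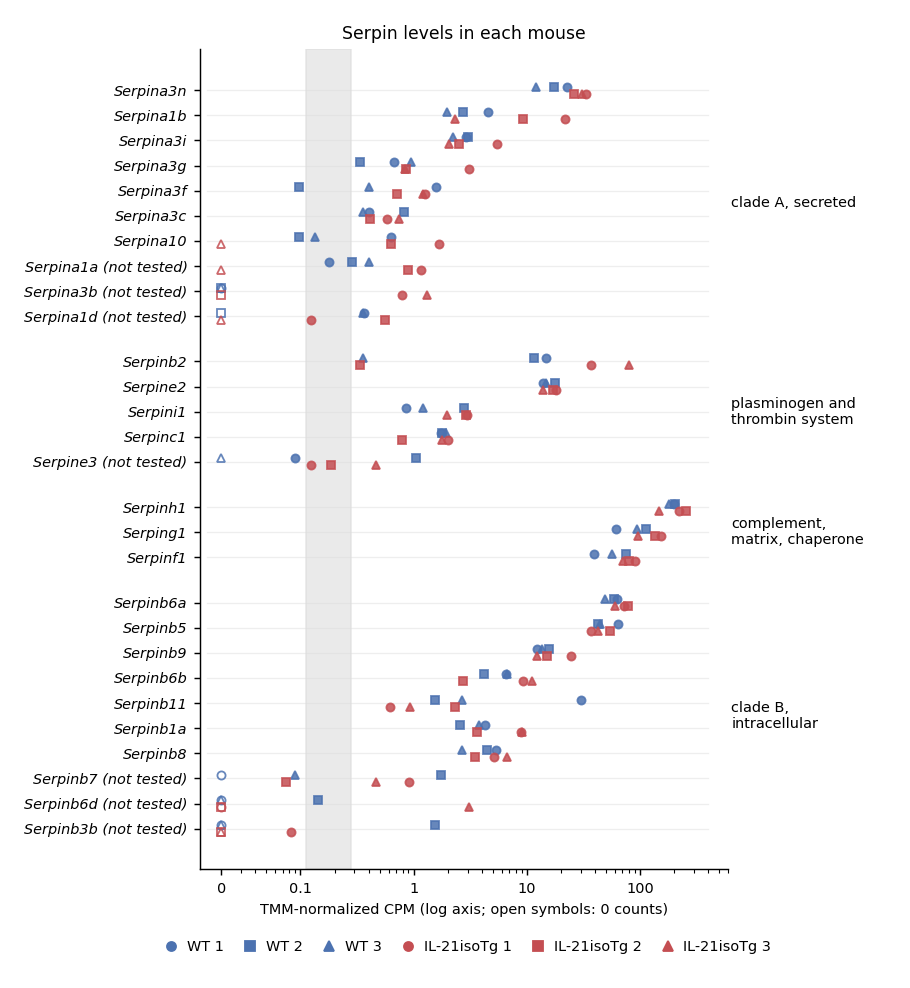
Level of each of the 28 serpins in each mouse, as TMM-normalized CPM on a log axis, with wild-type mice in blue and IL-21isoTg mice in red, grouped by role and ordered by mean level within a role. Open symbols mark 0 counts and the grey band marks what 3 counts amount to in the 6 mice (0.112 to 0.28 CPM); the levels run from 0 to the 257 CPM of Serpinh1, and of the 21 serpins tested here only Serpina3n has red symbols that all lie to the right of the blue ones.

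Of the 21 serpins tested, none differed between the genotypes at an adjusted p under 0.05 by the quasi-likelihood test of edgeR with Benjamini-Hochberg adjustment, and their adjusted p-values lay between 0.809 and 0.979. Of all 17165 genes tested, 0% were called by this test. DESeq2 called 81 genes and edgeR's likelihood ratio test 65, with no serpin among them. By direction, 18 serpins (85.7%) had a log2 fold change above 0, against 47.9% of all genes tested. The median log2 fold change was 0.401 over the 21 serpins and -0.0187 over all genes. A gene can pass the filter through the genotype in which it is high, and among the 16 serpins that had 10 counts or more in each of the 6 mice 13 were above 0, with a median of 0.312. Unadjusted p-values under 0.05 with a higher level in IL-21isoTg MECs were found for Serpina3n, Serpina1b and Serpinb1a, 14.3% of the serpins against 3.19% of all genes. With a lower level there was Serpinb11 alone, 4.76% against 2.63%. The groups did not overlap for 1 serpin that was higher, Serpina3n (4.76%, against 5.54% of all genes), and for 0 that were lower (against 6.54%).

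The shift was not equal in all mice. Each serpin's log2 level was set against its own mean over the 6 mice, and the median over the 21 serpins was -0.00316, -0.00433 and -0.273 in wild-type mice 1, 2 and 3 and 0.489, -0.0143 and -0.0656 in IL-21isoTg mice 1, 2 and 3. IL-21isoTg mice 2 and 3 therefore lay close to wild-type mice 1 and 2, and IL-21isoTg mouse 1 and wild-type mouse 3 lay far apart. Without IL-21isoTg mouse 1 the median log2 fold change was 0.28 and 16 of 21 serpins were above 0. Adipocyte markers were also highest in IL-21isoTg mouse 1: the 8 of them summed to 25.8, 68.6 and 31.6 CPM in wild-type mice and 338, 113 and 32.1 CPM in IL-21isoTg mice, most of it Fabp4 and Cfd. The 4 adipocyte markers tested had higher levels, 2 with an unadjusted p under 0.05, and a median log2 fold change of 2.98. Adipoq, the gene of the adipocyte hormone adiponectin, had at most 0.27 CPM in wild-type mice and 8.61, 0.893 and 0.0933 CPM in IL-21isoTg mice. The part of adipocytes and of myoepithelial cells in the serpin differences was not tested.

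**Figure D2:**
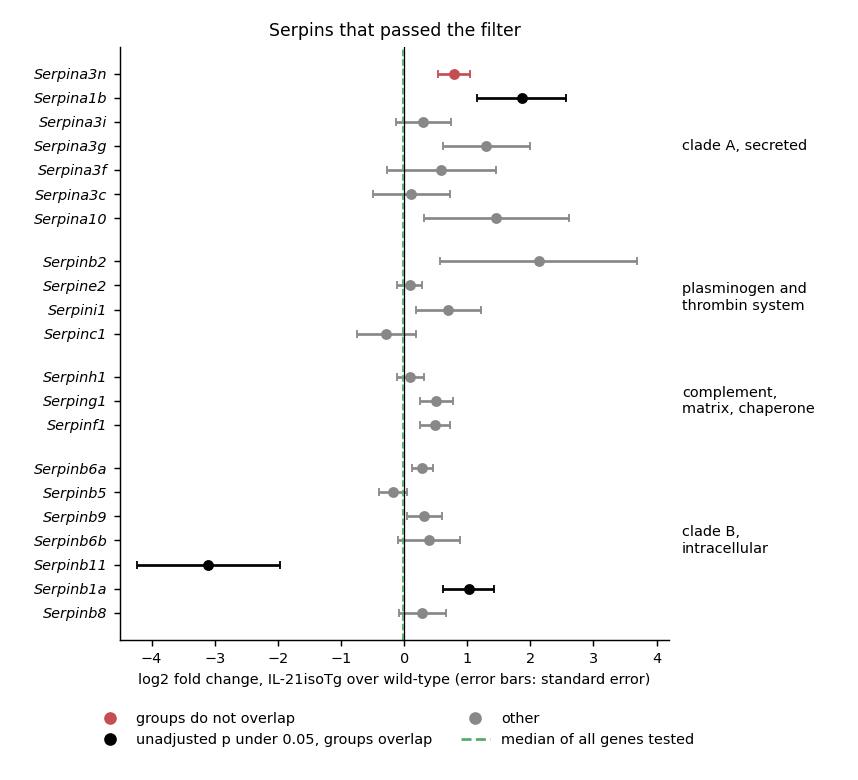
Log2 fold change (IL-21isoTg over wild-type) with its standard error for the 21 serpins that passed the filter, grouped by role. Red marks Serpina3n, whose groups do not overlap, black the serpins with an unadjusted p under 0.05 and overlapping groups, and the dashed line is the median of all genes tested (-0.0187); 18 of 21 points lie above 0, and the widest bars belong to Serpinb2, Serpina10 and Serpinb11.

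Of 4 serpins of the plasminogen and thrombin system that were tested, 3 had a log2 fold change above 0, with a median of 0.393, and none had an unadjusted p under 0.05. Serpinb2 encodes plasminogen activator inhibitor 2 and varied more between mice than any other serpin with counts in every mouse. Its level was 14.7, 11.5 and 0.36 CPM in wild-type mice 1, 2 and 3 and 37.2, 0.335 and 79.3 CPM in IL-21isoTg mice 1, 2 and 3. The highest and lowest mouse were both IL-21isoTg and differed 237-fold, while wild-type mouse 3 was as low as IL-21isoTg mouse 2. The log2 fold change was 2.13 with a standard error of 1.56 (unadjusted p = 0.214), and it was 0.04 once the share of salivary gland counts was a term of the fit. Exons of Serpinb2 and of its neighbour Serpinb10, annotated as a polymorphic pseudogene, share 291 bases, 12.4% of the exon length of Serpinb2.

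The other members of this group were lower or steadier. Serpine2 encodes protease nexin 1, an inhibitor of thrombin and urokinase, and had 13.8, 17.7 and 14.8 CPM in wild-type mice and 18.2, 17.0 and 14 CPM in IL-21isoTg mice. Its groups overlapped, and with a 1.31-fold range over the 6 mice it had the smallest spread of the serpins described mouse by mouse (log2 fold change 0.091, standard error 0.198). Serpini1, which encodes the tissue-type activator's inhibitor neuroserpin, lay between 0.857 and 2.95 CPM. Serpinc1, which encodes antithrombin, lay between 0.782 and 2.00 CPM, and 34.4% of its exon bases are shared with Zbtb37 on the other strand. Serpine3 had between 0 and 22 counts.

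The proteases that activate plasminogen are targets of some of these serpins. Plat, the tissue-type activator, had 51.6, 25.8 and 36.9 CPM in wild-type mice and 35.0, 75.7 and 62.8 CPM in IL-21isoTg mice (log2 fold change 0.60, standard error 0.334). Plau, the urokinase-type activator, had 224, 53.5 and 88.1 CPM against 62.3, 107 and 150 CPM (log2 fold change -0.20, standard error 0.522). For both the groups overlapped, and wild-type mouse 1 had the highest Plau. Its receptor gene Plaur was highest in the same wild-type mouse, at 111 CPM, and lay between 22.6 and 92.4 CPM in the others. Of 15 genes of the plasminogen system tested, besides serpins, 9 had higher and 6 lower levels and none had an unadjusted p under 0.05. Among 10 genes of coagulation tested, 6 had higher levels. They included Thbd, which encodes thrombomodulin of the endothelial surface (20.8, 41.8 and 30.2 against 64.0, 51.4 and 52.2 CPM, log2 fold change 0.85, standard error 0.254, unadjusted p = 0.01) and Tfpi, the tissue factor pathway inhibitor (log2 fold change 1.06, standard error 0.378, unadjusted p = 0.0228). Neither gene passed the adjusted threshold (adjusted p = 0.809 for each).

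Of the secreted serpins of clade A, each of the 7 tested had a log2 fold change above 0, with a median of 0.787. Only Serpina1b, Serpina3i and Serpina3n of these had 10 counts or more in every mouse. The others can have passed the filter through the genotype in which they are high, and several are tandem neighbours with low counts. Serpina3n encodes an acute-phase inhibitor of leukocyte elastase and granzyme B and lies on the plus strand of chromosome 12 from 104406729 to 104414329. Its level was 22.8, 17.4 and 12.1 CPM in wild-type mice 1, 2 and 3 and 33.3, 26.4 and 30.5 CPM in IL-21isoTg mice 1, 2 and 3. Every IL-21isoTg value exceeded every wild-type value, with the smallest gap between wild-type mouse 1 and IL-21isoTg mouse 2. The mean was 17.4 ± 5.38 CPM (SD, n = 3) against 30.1 ± 3.45 CPM (SD, n = 3), which is a log2 fold change of 0.79 (standard error 0.25, unadjusted p = 0.0138, adjusted p = 0.809 by edgeR's quasi-likelihood test). The exact permutation test over mice gave p = 0.1 for Serpina3n, counting both sides, which is the smallest p that 3 mice against 3 allow. The unadjusted p stayed under 0.05 in all 18 settings tried for Serpina3n, those without any 1 mouse included, with log2 fold changes between 0.58 and 1.04 and a highest p of 0.0499.

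Serpina1b is 1 of several mouse genes for α1-antitrypsin, the inhibitor of neutrophil elastase, and lies on the minus strand of chromosome 12 from 103728156 to 103830373. It had 4.56, 2.74 and 1.98 CPM in wild-type mice 1, 2 and 3 and 21.9, 9.31 and 2.33 CPM in IL-21isoTg mice 1, 2 and 3. IL-21isoTg mice 1 and 2 were above all wild-type mice, whereas IL-21isoTg mouse 3 lay among them. The adipocyte, milk, myoepithelial and endothelial marker sums all had the same order of mice within the IL-21isoTg group. None of these sums had the order of Serpina1b within the wild-type group. The mean was 3.09 ± 1.32 CPM (SD, n = 3) against 11.2 ± 9.90 CPM (SD, n = 3), which is a log2 fold change of 1.86 (standard error 0.707, unadjusted p = 0.0301, adjusted p = 0.809). Without IL-21isoTg mouse 1 the log2 fold change of Serpina1b was 0.94 (unadjusted p = 0.183), and without IL-21isoTg mouse 3 it was 2.35 (unadjusted p = 0.0023). The unadjusted p of Serpina1b was under 0.05 in 12 of 18 settings, and without wild-type mouse 1, 2 or 3 it was 0.0516, 0.0862 and 0.0934.

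Reads of the α1-antitrypsin genes are hard to divide. Of all 100-base stretches in their transcripts, 40.8% in Serpina1a, 26.3% in Serpina1d and 13.8% in Serpina1b occur unchanged in another serpin gene. Serpina1a had 4, 6 and 9 counts in wild-type mice and 28, 24 and 0 counts in IL-21isoTg mice, the same order of mice as Serpina1b in the IL-21isoTg group. Serpina1d had 8, 0 and 8 counts against 3, 15 and 0. Summed over the family, of which Serpina1b held 89.2% of counts, the level was 5.37, 3.03 and 2.74 CPM in wild-type mice and 23.5, 10.9 and 2.33 CPM in IL-21isoTg mice. The reference is the C57BL/6J genome and the mice are BALB/c, so a strain difference in these copies cannot be told apart from a difference in counting.

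**Figure D3:**
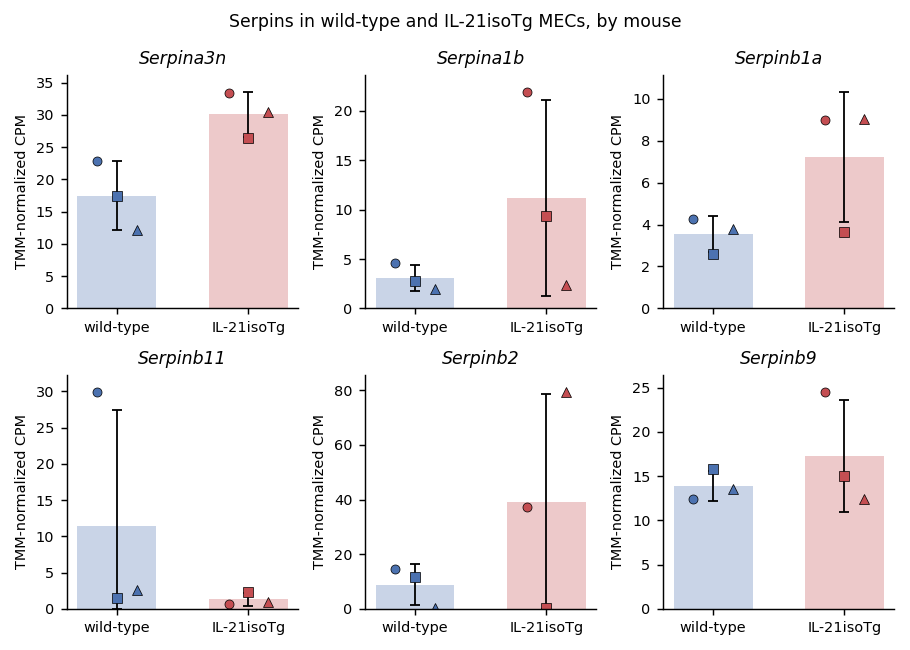
Level (TMM-normalized CPM) of 6 serpins in wild-type and IL-21isoTg MECs: bars are means of 3 mice, error bars the SD (drawn down to 0 where the SD exceeds the mean) and symbols the mice (circle 1, square 2, triangle 3). Serpina3n has no overlap between the groups, while IL-21isoTg mouse 3 lies among the wild-type mice for Serpina1b, wild-type mouse 1 stands alone for Serpinb11, Serpinb2 runs from 0.335 to 79.3 CPM, and IL-21isoTg mouse 1 stands above the others for Serpinb9.

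The remaining clade A genes belong mostly to the tandem Serpina3 cluster next to Serpina3n and had low levels. Serpina3g, known as an inhibitor of lysosomal cysteine cathepsins, had 0.676, 0.336 and 0.945 CPM in wild-type mice and 3.08, 0.856 and 0.839 CPM in IL-21isoTg mice, so IL-21isoTg mouse 1 alone was well above the rest (log2 fold change 1.30, standard error 0.691, unadjusted p = 0.098). Serpina3i lay between 2.05 and 5.45 CPM, Serpina3f between 0.0961 and 1.58 CPM and Serpina3c between 0.36 and 0.817 CPM, and their log2 fold changes were 0.30, 0.59 and 0.11 (standard errors 0.437, 0.863 and 0.609). Serpina3b had 0 counts in all wild-type mice and 19, 0 and 14 counts in IL-21isoTg mice 1, 2 and 3. Serpina10, which encodes an inhibitor of coagulation factor Xa, had 14, 2 and 3 counts against 40, 17 and 0.

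Several promoters of the cluster share a stretch in which the genes part ways. The RefSeq promoter table (GRCm38.p6, 250 bases before to 50 after each start) held promoters of 25 of the 28 serpins; Serpina10, Serpinb1a and Serping1 had no entry. The motif TTCNNNGAA, the general form bound by STAT proteins, which act downstream of IL-21 and IL-6 receptors, reads the same on both strands and was present in 8.3% of 32851 promoters. Among the serpins it was found for Serpina3f, Serpina3g, Serpina3i, Serpinb2 and Serpinb6a, in 7 of 29 promoters. Serpina3f and Serpinb2 have overlapping promoters that hold the same site, and Serpina3f, Serpina3g and Serpina3i are tandem neighbours. The 7 are therefore not independent, and enrichment was not tested. In the lines below the 9 bases in capitals stand at the place of the motif.
Serpina3f: tcagttctatTTCCTAGAAatcacccattt
Serpina3g: taagttatagTTCCCAGAAatcacccggtc
Serpina3i: taagtgcttgTTCCCAGAAatcacccagtc
Serpina3n: caaatccatgTTACCAGAAatcatccagtc
Serpina3c: taaatccataTTACCAGAAatcatccagtc
These stretches lie at chr12:104214413-104214442, chr12:104236104-104236133, chr12:104263010-104263039 and chr12:104406575-104406604 on the plus strand and at chr12:104153973-104154002 on the minus strand. Serpina3f, Serpina3g and Serpina3i hold all 6 fixed letters of the motif and Serpina3n and Serpina3c hold 5. The 9 bases begin at positions between -123 and -33 relative to an annotated transcript start. From another annotated start of Serpina3f they begin at -210. The promoter of Serpina3b, also of this cluster, was without the motif and is not shown. Serpina3n, the most abundant gene of the cluster and the only one whose groups did not overlap, was thus without the full motif in this window, which says nothing of its other regulatory regions.

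Serpina3n is known to rise in the acute phase, as are genes of a list of IL-6 and STAT3 response genes that holds no serpin. Of 17 of these tested, 13 had higher levels, 5 had an unadjusted p under 0.05 and a higher level and none had one with a lower level. Saa1, a serum amyloid A gene, had 1.31, 0.577 and 7.02 CPM in wild-type mice and 52.6, 59.1 and 16.9 CPM in IL-21isoTg mice (log2 fold change 3.85, standard error 0.885, adjusted p = 0.67). Saa2 and Orm1 had log2 fold changes of 4.78 and 4.0, Lrg1 of 1.18 and the receptor gene Il6ra of 0.56. Hp, Fgb and Socs3, which respond to the same signals, had log2 fold changes of -0.80, -1.01 and 0.10 with unadjusted p-values of 0.14, 0.244 and 0.846. Of 7 liver markers, Alb, Apoa2 and Ahsg had 0 counts in every mouse and Apoa1 had at most 0.048 CPM. The list summed to 673, 2490 and 2040 CPM in wild-type mice and 6780, 7320 and 2700 CPM in IL-21isoTg mice, nearly all of it Trf, the transferrin gene, which the lactating mammary gland also expresses (log2 fold change 1.72, standard error 0.566, unadjusted p = 0.0163). Ttr, the transthyretin gene, had 3.07, 1.59 and 7.06 CPM against 23.7, 1.49 and 21.2 CPM.

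Proteases of leukocytes, lysosomes and epithelium include known targets of clade A and clade B serpins, but not every gene listed is one. Elastase (Elane), cathepsin G (Ctsg) and granzyme B (Gzmb) had levels of at most 0.223 CPM in any mouse, and 3 of 13 leukocyte protease genes were tested. Of these, Prtn3, the gene of proteinase 3, lay between 0.746 and 6.89 CPM (log2 fold change 0.68, standard error 0.757), and Gzmm, for granzyme M, had overlapping groups (log2 fold change -0.38, standard error 0.798). Cfd, the gene of complement factor D, had 0.0451, 0.192 and 3.24 CPM in wild-type mice and 132, 11.1 and 1.96 CPM in IL-21isoTg mice (log2 fold change 5.38, standard error 1.81, unadjusted p = 0.0204), and is also on the adipocyte list. Of 12 genes of the cathepsin list, all tested, 10 had higher levels and 4 an unadjusted p under 0.05, all higher. The list also holds the cystatin genes Cst3, Cstb and Cst6, which are not proteases. Ctsl, which encodes cathepsin L, had 229, 265 and 254 CPM in wild-type mice and 439, 459 and 410 CPM in IL-21isoTg mice, with a wide gap between the groups (log2 fold change 0.81, standard error 0.163, unadjusted p = 0.00113, adjusted p = 0.523). Ctsd and Ctsh, for the lysosomal cathepsins D and H, had log2 fold changes of 0.51 and 0.38 (unadjusted p = 0.0197 and unadjusted p = 0.0329). The cystatin gene Cst6 had one of 2.92 (standard error 1.2, unadjusted p = 0.0407), but its groups overlapped. It had 0.947, 2.21 and 0.315 CPM in wild-type mice and 8.69, 0.298 and 17.6 CPM in IL-21isoTg mice. Among 16 epithelial serine protease genes tested 11 had higher levels, Prss23 with an unadjusted p of 0.0197 and a log2 fold change of 0.63.

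Serping1, Serpinf1 and Serpinh1 act in complement, the matrix and the endoplasmic reticulum and were the most abundant of the 28 serpins. Serping1 encodes the inhibitor of complement proteases C1r and C1s and lies on the minus strand of chromosome 2 from 84765387 to 84775444. It had 61.6, 114 and 93.6 CPM in wild-type mice and 152, 135 and 96.7 CPM in IL-21isoTg mice (log2 fold change 0.51, standard error 0.264, unadjusted p = 0.0905). The groups overlapped because IL-21isoTg mouse 3 lay below wild-type mouse 2. Of the genes of its targets, the log2 fold change was 0.52 (standard error 0.27) for C1s1 and 0.53 (standard error 0.365) for C1ra. Of 13 complement genes tested 10 had higher levels, among them C1s2 (log2 fold change 0.93, unadjusted p = 0.0129) and C1qc (log2 fold change 1.69, unadjusted p = 0.0385).

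Serpinf1 encodes pigment epithelium-derived factor, a secreted inhibitor of vessel growth, and lies on the minus strand of chromosome 11 from 75409769 to 75422701. It had 39.5, 75.7 and 57.2 CPM in wild-type mice and 90.6, 80.5 and 70.7 CPM in IL-21isoTg mice, with overlap through wild-type mouse 2 and IL-21isoTg mouse 3 (log2 fold change 0.49, standard error 0.242, unadjusted p = 0.0781). Serpinh1, which encodes the collagen chaperone HSP47, lies on the minus strand of chromosome 7 from 99345376 to 99353239. It had 198, 203 and 181 CPM in wild-type mice and 220, 257 and 147 CPM in IL-21isoTg mice. The lowest mouse was IL-21isoTg mouse 3, and the log2 fold change of 0.10 (standard error 0.221) became -0.08 without IL-21isoTg mouse 2. The collagens that Serpinh1 serves were higher by more: of 19 collagen and chaperone genes tested 18 had higher levels, 7 with an unadjusted p under 0.05, all of them collagens. Col1a1 had 392, 678 and 647 CPM in wild-type mice and 1400, 1070 and 1020 CPM in IL-21isoTg mice (log2 fold change 1.02, standard error 0.274, unadjusted p = 0.00579, adjusted p = 0.795). The chaperone gene Hspa5 had a log2 fold change of 0.061 with a standard error of 0.258.

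Markers of fibroblasts, a known source of Serping1 and Serpinf1, are given here beside these genes. The 9 fibroblast markers summed to 2050, 3560 and 3220 CPM in wild-type mice and 5110, 4450 and 4470 CPM in IL-21isoTg mice. Most of this sum was Col1a1, Col1a2 and Col3a1, also on the collagen list, and the rest overlapped between the groups. Of the 9, 7 had higher levels and 4 did not overlap between the groups, all 4 higher, against 5.54% of all genes. Col1a1, Col1a2 and Col3a1 are among these 4. Pdgfra, the gene of the depleted antigen CD140a, lay at 15.8, 40.2 and 48.5 CPM against 60.4, 50.5 and 43.7 CPM. The 8 endothelial markers, with the CD31 gene Pecam1 among them, summed to 110, 234 and 95.5 CPM against 334, 286 and 146 CPM, and all 8 had higher levels. The part of either cell type in the serpin differences was not tested. Wild-type mouse 1 was lowest for the fibroblast markers, Serping1 and Serpinf1 alike. IL-21isoTg mouse 3 lay above wild-type mouse 2 for the fibroblast sum and below it for Serping1 and Serpinf1. Without Col1a1, Col1a2 and Col3a1 the rest of the sum was also lower in IL-21isoTg mouse 3 than in wild-type mouse 2.

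**Figure D4:**
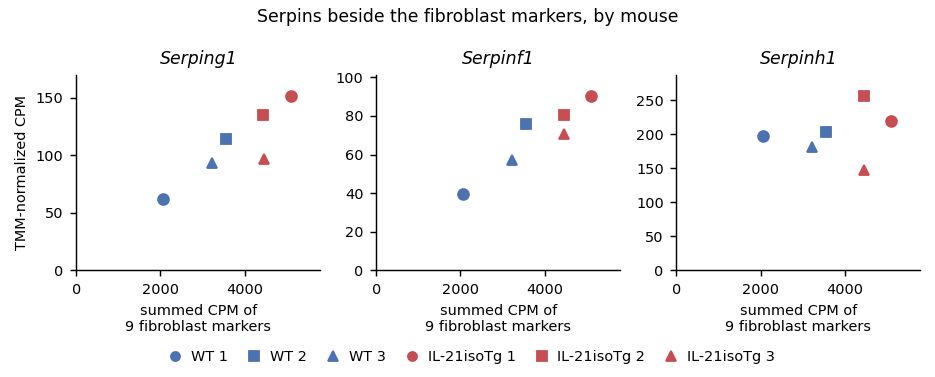
Level (TMM-normalized CPM) of 3 serpins in each mouse against the summed CPM of the 9 fibroblast markers, with wild-type mice in blue and IL-21isoTg mice in red (circle mouse 1, square mouse 2, triangle mouse 3). The marker sum is higher in each IL-21isoTg mouse (4450 to 5110 CPM) than in any wild-type mouse (2050 to 3560 CPM). Most of it is Col1a1, Col1a2 and Col3a1, and the rest overlaps between the groups. Serping1 and Serpinf1 are lowest where the sum is lowest, and Serpinh1 does not follow it.

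Clade B serpins stay inside cells and protect them against proteases from their own granules and lysosomes. Of 8 in this list that were tested (Serpinb2 included), 6 had higher levels, and the median log2 fold change was 0.307. Serpinb1a, an inhibitor of neutrophil elastase and cathepsin G, lies on the minus strand of chromosome 13 from 32842092 to 32851185. It had 4.28, 2.59 and 3.78 CPM in wild-type mice and 8.98, 3.65 and 9.05 CPM in IL-21isoTg mice. IL-21isoTg mice 1 and 3 were above all wild-type mice, and IL-21isoTg mouse 2 was among them (log2 fold change 1.02, standard error 0.41, unadjusted p = 0.0386, adjusted p = 0.809). The unadjusted p of Serpinb1a was under 0.05 in 13 of 18 settings, and among those in which it was not were the ones without wild-type mouse 2 or 3 and without IL-21isoTg mouse 1 or 3.

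The abundant clade B genes changed little. Serpinb5 encodes maspin, named for its loss in mammary carcinoma, and lies on the plus strand of chromosome 1 from 106861173 to 106883348. It had 64.2, 43.0 and 44.4 CPM in wild-type mice and 36.8, 54.2 and 42.4 CPM in IL-21isoTg mice, with overlap of the groups, although 2 IL-21isoTg mice lay below and wild-type mouse 1 above all mice of the other genotype (log2 fold change -0.18, standard error 0.22). Without wild-type mouse 1 the log2 fold change of Serpinb5 was 0.04. Serpinb6a, an inhibitor of cathepsin G, had 62.7, 59.4 and 49.2 CPM in wild-type mice and 72, 77.9 and 60.1 CPM in IL-21isoTg mice, and the groups overlapped only through IL-21isoTg mouse 3 (log2 fold change 0.29, standard error 0.168, unadjusted p = 0.118). Exons of Nqo2, Ripk1 and an antisense gene overlap those of Serpinb6a on the other strand. Whether reads were counted by strand is not given in the sources used here. Serpinb9, the inhibitor of granzyme B, had 12.4, 15.8 and 13.5 CPM against 24.5, 15 and 12.4 CPM; IL-21isoTg mouse 1 alone was high, and without it the log2 fold change of 0.32 (standard error 0.278) became -0.02. Serpinb6b and Serpinb8, an inhibitor of furin, lay between 2.65 and 11.1 CPM, and their log2 fold changes were 0.40 and 0.29 (standard errors 0.49 and 0.377).

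Serpinb11 was the 1 serpin with a lower level and an unadjusted p under 0.05. It had 664, 32 and 59 counts in wild-type mice 1, 2 and 3 and 15, 62 and 10 counts in IL-21isoTg mice 1, 2 and 3, which is 29.9, 1.54 and 2.65 CPM against 0.624, 2.31 and 0.933 CPM. A single mouse, wild-type mouse 1, was far above the other 5, whose values overlapped. The log2 fold change was -3.10 (standard error 1.14, unadjusted p = 0.026, adjusted p = 0.809), and without wild-type mouse 1 it was -0.67 (unadjusted p = 0.326).

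A few clade B serpins with low counts appeared in some mice and not in others, regardless of genotype. Serpinb7, a serpin of keratinocytes, had 0, 36 and 2 counts in wild-type mice and 22, 2 and 5 counts in IL-21isoTg mice. Serpinb3b had 32 of its 34 counts in wild-type mouse 2, and Serpinb6d had 33 of its 36 counts in IL-21isoTg mouse 3. The 7 keratinocyte markers summed to 41.1, 373 and 13 CPM in wild-type mice and 148, 64.1 and 187 CPM in IL-21isoTg mice. The epidermal keratin gene Krt10 had 201, 96.5 and 114 CPM in wild-type mouse 2 and IL-21isoTg mice 1 and 3 and at most 2.38 CPM in the other 3 mice. Serpinb7 was highest in those same 3 mice, and the part of keratinocytes in its counts was not tested. Serpinb5 and Serpinb11 were not higher in these mice.

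**Figure D5:**
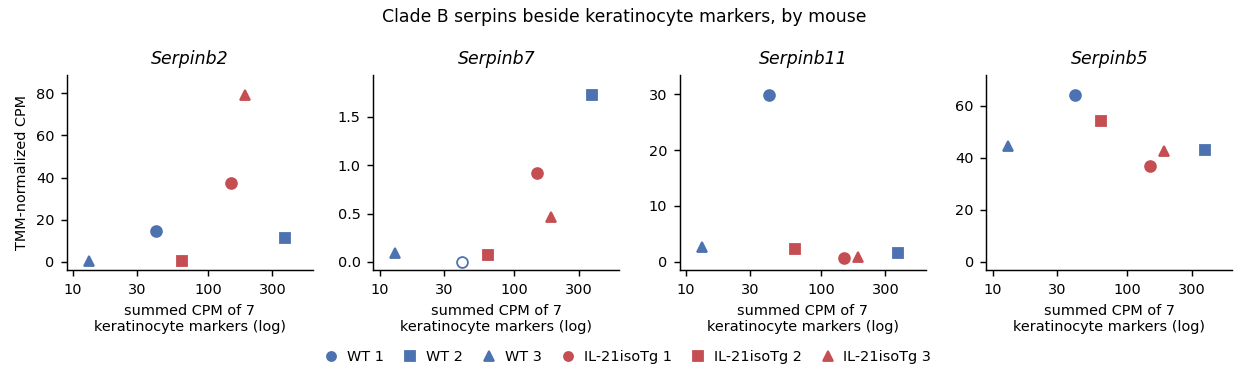
Level (TMM-normalized CPM) of 4 clade B serpins in each mouse against the summed CPM of 7 keratinocyte markers on a log axis, with wild-type mice in blue and IL-21isoTg mice in red (circle mouse 1, square mouse 2, triangle mouse 3, open symbol 0 counts). Serpinb7 is highest in the 3 mice with the highest marker sums (148 to 373 CPM), Serpinb2 is high in 2 of these, Serpinb11 is high in wild-type mouse 1 alone, and Serpinb5 lies between 36.8 and 64.2 CPM throughout.

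Leukocyte markers, by contrast, were low in all mice. The 5 general leukocyte markers summed to between 6.87 and 22.9 CPM, the 9 T cell markers to between 8.89 and 13.9 CPM and the 12 macrophage markers to between 29.4 and 37.1 CPM. Serpinb1a is known as a serpin of myeloid cells. The macrophage sum was 35.9, 29.4 and 30.3 CPM in wild-type mice and 37.1, 33.6 and 36.4 CPM in IL-21isoTg mice, with overlap of the groups. Of 9 macrophage markers tested, 4 had higher and 5 lower levels. C1qa, C1qc and Mertk were higher without overlap of the groups (log2 fold changes 0.94, 1.69 and 0.54). C1qa and C1qc are also on the complement list. The 6 neutrophil markers summed to between 0.048 and 1.8 CPM, with the lowest and highest sums both in wild-type mice. The part of either cell type in the Serpinb1a difference was not tested.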

How the data were processed

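MEC RNA from 3 wild-type and 3 IL-21isoTg mice was sequenced from poly(A)-selected, directional libraries. The authors deposited raw read counts per gene; the submitters' processing notes name FastQC 0.11.7, Trimmomatic 0.38, HISAT2 2.1.0, SAMtools 1.9, featureCounts 1.6.3 and DESeq2 1.24.0 with build mm10; whether reads were counted by strand is not given in the sources used here. A table of counts divided by size factors was not used, and of the authors' comparison, which holds fold changes and p-values, only gene positions (the start and end per the file headers) were read. The start and end in GENCODE M21 (GRCm38) were the same for 31020 of 31286 shared identifiers and for the 28 serpins described; 1 further serpin that met the rule is not reported here.

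Genes were filtered with filterByExpr (minimum count 10, minimum total 15), normalized with TMM and tested on genotype alone with the robust quasi-likelihood method of edgeR 4.0.16, with Benjamini-Hochberg adjustment over 17165 genes. Standard errors were derived from the F statistic. For single values exact permutation tests over mice were used, counting both sides. DESeq2 1.42.0 and limma 3.58.1 in R 4.3.3, other normalizations and filters, a salivary covariate, a replicate block and leaving out each mouse served as alternatives. Sequences, positions and plots were made with Python 3.11.15. The test was run on simulated data first. Values were given mouse by mouse for the 10 most abundant serpins, those with an unadjusted p under 0.05 or groups that do not overlap, and serpins with well-known roles. Serpina3g and the lower serpins beyond that rule were chosen after their values were seen. Most list genes were named for an unadjusted p under 0.05 or as targets or partners of a named serpin. Some list and marker genes, such as Hp, Fgb, Socs3, Adipoq, Ttr and Krt10, were named outside that rule. The serpins, gene lists and marker lists were chosen with earlier results of these data known. Each library is 1 mouse; p-values rest on 3 mice per genotype.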

Additional observations from a re-analysis of the deposited data

How the results depend on the processing

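Depth limits the 7 serpins that did not pass the filter and were not tested. No serpin was called at an adjusted p under 0.05 under any of the 11 alternatives or without any mouse. Over all genes the count of calls was 0, against 14 with no filter, 81 with DESeq2's Wald test, 65 with edgeR's likelihood ratio test, 1 with the salivary share as a covariate and 0 to 6 without 1 mouse (6 without wild-type mouse 3); the cause was not tested. The 4 serpins with an unadjusted p under 0.05 became 1 with limma-voom, Serpina3n, and 1 to 7 without 1 mouse, 1 without IL-21isoTg mouse 1 and 7 without IL-21isoTg mouse 2; the share over all genes moved likewise, from 5.82% to 3.04% and 8.88%. The 1 serpin whose groups do not overlap became 2, with Serpinb6a added, when salivary and milk genes were left out of the TMM factors, and 1 to 8 without 1 mouse, with 3, 6, 2, 7 and 8 without wild-type mouse 1, wild-type mouse 2, wild-type mouse 3, IL-21isoTg mouse 2 and IL-21isoTg mouse 3; leaving out a mouse also raises the share over all genes, in either direction, from 12.1% to between 17.9% and 27.6%. The number of serpins with a higher level was 16 to 20 without 1 mouse, and their median log2 fold change 0.28 to 0.56. Of 203 values of single serpins under an alternative, 200 kept their direction. The 3 that reversed were those of Serpinb5 (-0.35 to 0.0361 without 1 mouse), Serpinb9 (-0.0162 to 0.52) and Serpinh1 (-0.0785 to 0.31), and none of these had an unadjusted p under 0.05. The other alternatives kept every count within 1.5 times, but not always with the same serpins. With no filter, Serpina3b and Serpinf1 had an unadjusted p under 0.05 in place of Serpina1b and Serpinb11. With the salivary covariate, Serpinf1 and Serping1 were added and Serpinb11 was lost.

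Mouse numbers did not pair the mice: deviations of same-numbered mice from their group means correlated at -0.263, 0.0956 and -0.0556. With a replicate block 3 serpins had an unadjusted p under 0.05 in place of 4, Serpinb11 being the one lost, and 0 genes were called; 18 serpins had higher levels, with a median log2 fold change of 0.292.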

Other observations

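Among the 40 serpin-named rows that are not protein-coding or held fewer than 30 counts, most had few reads or none, but a pseudogene of the Serpina3 cluster did not. Serpina3h, annotated as a transcribed unprocessed pseudogene on the plus strand of chromosome 12 from 104247905 to 104253669, had 1443 counts in all, more than any gene of the cluster except Serpina3n with 2974. Its level was 16.6, 8.94 and 6.34 CPM in wild-type mice and 17.1, 8.45 and 10.4 CPM in IL-21isoTg mice. The groups overlapped, and the log2 fold change was 0.17 (standard error 0.407, unadjusted p = 0.679). Of the 100-base stretches of its transcript 3.6% occur unchanged in another serpin gene. Summed over the 14 Serpina3 genes and pseudogenes the level was 45.3, 31.1 and 22.4 CPM against 61.9, 39.7 and 47.6 CPM, and the 2 groups overlapped, unlike those of Serpina3n alone.

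Serpina12, which encodes the adipokine vaspin and held too few counts to be included, had 0, 12 and 0 counts in wild-type mice and 12, 0 and 3 counts in IL-21isoTg mice. The 3 mice with counts were those with the highest Krt10. Serpinb10, the neighbour of Serpinb2, had 73, 37 and 3 counts against 37, 16 and 1 counts. The mouse with the highest Serpinb2, IL-21isoTg mouse 3, thus had 1 count, under the floor of 3 and in the smallest library.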
